A study of Homo sapiens with 6 samples.

Results

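Polycomb repressive complexes keep developmental genes silent by marking histones. Polycomb repressive complex 2 (PRC2) methylates lysine 27 of histone H3 through EZH2 or its paralogue EZH1, which need the partners EED and SUZ12, and JARID2 is an accessory subunit that helps to bring the complex to chromatin. Polycomb repressive complex 1 (PRC1) attaches ubiquitin to histone H2A through RING1 or RNF2, pairs each of them with 1 of 6 PCGF proteins such as BMI1 (also named PCGF4) or PCGF6, and in its canonical form reads the PRC2 mark through a CBX protein such as CBX2. The 10 genes EZH1, EZH2, EED, SUZ12, JARID2, BMI1, RNF2, RING1, CBX2 and PCGF6 were taken by symbol from the 18677 genes of the deposited count table through their Ensembl identifiers. Each had 1 row, and all 10 passed the filter on low counts.

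All libraries came from H1299, a cell line of human lung carcinoma that lacks functional p53, grown in RPMI-1640 with puromycin. In 3 libraries the cells carried a guide RNA against SETDB1 (labelled hSETDB1 sg1; named knockout cells here after the labels), and in 3 they carried a control guide (Control sg2). SETDB1 is a histone methyltransferase of another silencing pathway, which marks lysine 9 of histone H3, and the comparison asks how transcript levels differ when it is targeted. Only 1 guide stands behind each group. Nothing in the labels tells if replicates were grown separately or if the cells were clonal, so the p-values measure only the spread between these samples.

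Total depth was 29532057 to 35941288 counts per library. Levels are given in CPM (counts scaled to library size, with TMM factors between libraries), and a log2 fold change sets the knockout against the control, with ± its standard error (SE). A gene is called changed at an adjusted p under 0.05 by edgeR's quasi-likelihood test with Benjamini-Hochberg adjustment over the 17675 genes tested; every adjusted p below is from this test unless another is named. SETDB1 mRNA itself stood at 40.6, 36.1 and 39.1 CPM in the knockout, against 45.0, 44.0 and 41.6 CPM in control cells (log2 fold change -0.17 ± 0.06, adjusted p = 0.0151). This call was lost without knockout replicate 2 (-0.13, edgeR adjusted p = 0.0896), with scaling by library size alone (-0.13, 0.0605) and at a threshold of 0.01. With the median of its neighbours taken out SETDB1 stood at -0.28 (edgeR adjusted p = 4.84e-04). An edit need not lower the mRNA, so the level checks the labels only in part. Of 12 lung epithelial markers 6 had a row, with a summed level of 484 to 498 CPM in knockout cells, and 944 to 1014 CPM in the control, nearly all of it from the keratins KRT8 and KRT18. Of the 6 blood markers 2 had a row, and their sum was 0.665 to 1.02 CPM in knockout cells against 0.226 to 0.400 CPM; 3 of 6 endothelial and fibroblast markers had one, with sums of 0.380 to 0.722 against 0.876 to 0.978 CPM. The part of these differences in the results below was not tested.

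Among the 10 Polycomb genes, EZH2, CBX2 and EZH1 were higher in knockout cells, and PCGF6, RNF2 and RING1 were lower. SUZ12, EED, JARID2 and BMI1 did not pass the test. The largest rise was EZH2, the main H3K27 methyltransferase, at 1.44-fold, and the largest fall was PCGF6, the PCGF subunit of a variant PRC1, at 1.82-fold. The 6 called genes were 60% of the 10, while 63.5% of all genes tested were called, 31.9% higher and 31.6% lower. Among the genes whose mean level lay within the range of the 10 (9.91 to 110.4 CPM), 71.2% were called, so the share of changed Polycomb genes was no higher than the background. The median log2 fold change of the 10 was 0.03, against 0.01 for all genes, and the median size of the change regardless of direction was 0.25 against 0.33. None of the 10 was called with a change of 2-fold or more, while 2283 of all genes tested were. In bulk RNA, fewer cells with a transcript and less of it per cell cannot be told apart. Knockout and control levels did not overlap for 8 of the 10, with SUZ12 and BMI1 as the exceptions, against 66.8% of all genes.

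**Figure D1:**
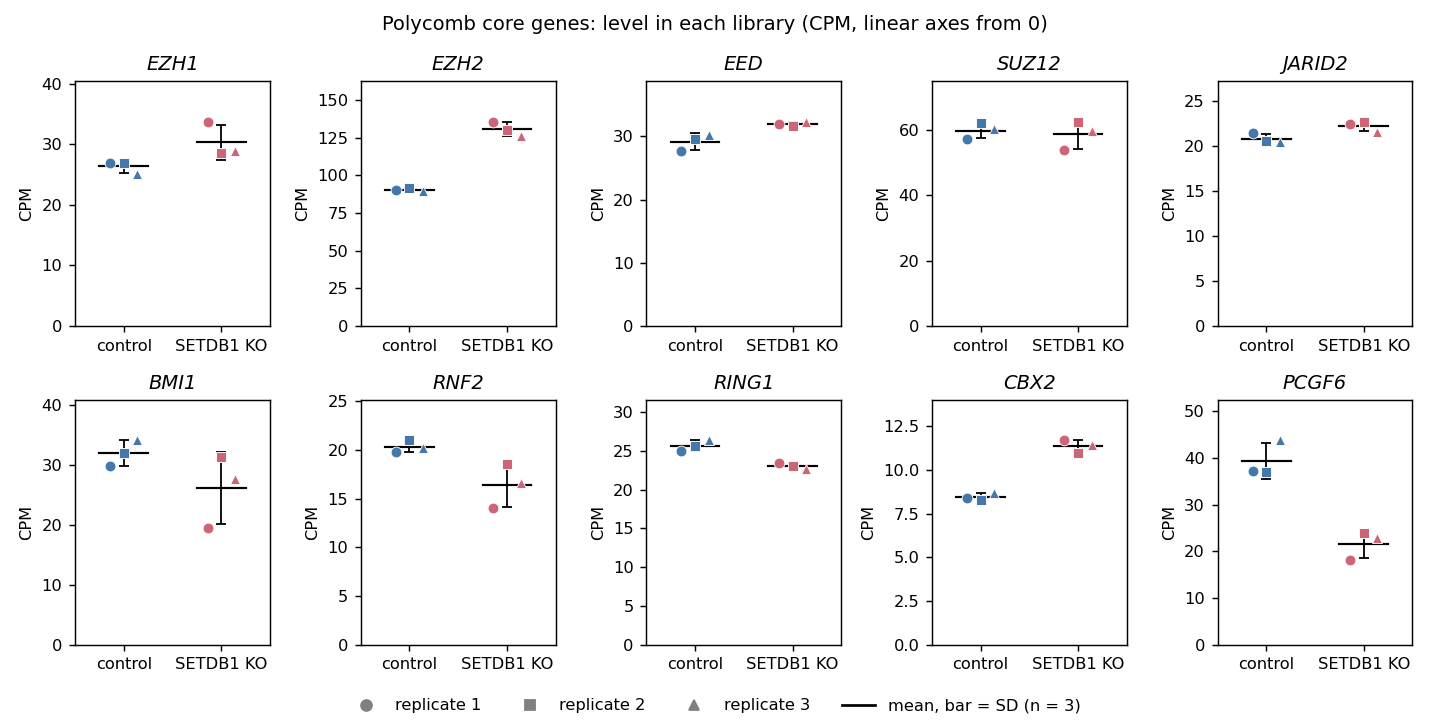
Level of each of the 10 Polycomb core genes in CPM (vertical axes, linear and starting at 0) in the 3 control and 3 knockout libraries; the marker shape gives the replicate number, the line is the mean and the bar is the SD. EZH2 and CBX2 lie higher and PCGF6 lower in every knockout library, and replicate 1 of knockout cells is the lowest of the 6 libraries for BMI1, RNF2, PCGF6 and SUZ12.

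The promoters of the largest rise, the smallest difference and the largest fall are shown, so that the genes can be compared in sequence as well as in level. Each is the 250 bases before the RefSeq start site (GRCh38.p14), 5′ to 3′ on the gene's strand: EZH2 at chr7:148884292-148884541 (minus), SUZ12 at chr17:31936757-31937006 (plus) and PCGF6 at chr10:103351141-103351390 (minus). Capitals mark matches on either strand to an E2F site (TTTCCCGC, TTTCGCGC, TTTGCCGC or TTTGGCGC), an E-box (CACGTG) or the cell cycle homology element (TTTGAA), motifs of factors that drive cell cycle genes or that partner PCGF6.
EZH2: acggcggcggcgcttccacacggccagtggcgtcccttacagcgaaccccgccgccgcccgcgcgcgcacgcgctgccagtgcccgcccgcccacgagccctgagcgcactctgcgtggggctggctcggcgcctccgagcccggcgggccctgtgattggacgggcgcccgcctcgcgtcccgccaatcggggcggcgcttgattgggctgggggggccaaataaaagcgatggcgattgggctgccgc
SUZ12: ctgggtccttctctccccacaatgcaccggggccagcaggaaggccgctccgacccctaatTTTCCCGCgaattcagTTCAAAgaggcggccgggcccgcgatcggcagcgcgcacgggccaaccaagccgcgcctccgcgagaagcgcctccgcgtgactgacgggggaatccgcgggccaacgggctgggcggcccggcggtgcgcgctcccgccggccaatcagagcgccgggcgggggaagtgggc
PCGF6: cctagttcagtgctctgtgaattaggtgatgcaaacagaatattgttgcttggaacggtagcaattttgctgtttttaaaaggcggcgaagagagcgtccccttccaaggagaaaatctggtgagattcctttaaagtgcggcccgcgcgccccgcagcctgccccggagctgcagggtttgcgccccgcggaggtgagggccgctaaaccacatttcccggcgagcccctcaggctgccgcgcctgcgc

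In these windows SUZ12 held 1 E2F match (TTTCCCGC) and 1 match to the cell cycle element (TTCAAA on the shown strand), and EZH2 and PCGF6 held none of the 3 motifs. RefSeq windows were found for 9 of the 10 genes, 12 windows in all, as EZH2, JARID2 and BMI1 had 2 each. For EZH2 the window nearer the annotated gene start is shown, and its other window held no match either. Of the other genes, EZH1 had 1 E2F match (GCGGCAAA on its strand). BMI1 had 1 E-box in the window nearer its annotated start and no match in its other window. Over all 35116 promoter windows of this length 2.79% held an E2F match, 6.34% an E-box and 13.3% the cell cycle element. The EZH2 window shown had 38 CpG dinucleotides, the SUZ12 window 34 and the PCGF6 window 19, against a median of 11 over all windows. A match or its absence in these windows says nothing about binding.

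Knockout replicate 1 lay at one end of the range for several of these genes. It had the lowest of the 6 levels for BMI1, RNF2, PCGF6 and SUZ12 and the highest for EZH1, EZH2 and CBX2. Over the 10531 genes above 8 CPM its median distance from the other libraries of its group was 0.08 on the log2 scale, against 0.09 for control replicate 3 and 0.04 to 0.07 for the other 4. It had the highest share of genes that deviated by 0.3 or more, 2.37%, against 1.54% in knockout replicate 2, 0.988% in control replicate 3 and 0.0190% to 0.693% in the other 3. Without it, 2 Polycomb genes were called higher and 3 lower, where 61.6% of the 18018 genes tested in that fit were called.

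EZH2 (ENSG00000106462.10, chromosome 7, 148807383 to 148884321 on the minus strand, GRCh38) had 135, 130.2 and 126 CPM in the knockout libraries and 90.2, 91.5 and 89.3 CPM in the control libraries. Every knockout library was above every control library, and the groups were far apart relative to their spread. The rise was 0.53 ± 0.05 (SE) on the log2 scale (adjusted p = 2.13e-08), or 44.5% in mean CPM. Its paralogue EZH1 (ENSG00000108799.12, chromosome 17, 42700275 to 42745049, minus strand), the less active enzyme that is usually the more prominent one in resting cells, had 33.7, 28.6 and 28.9 CPM against 27.0, 27.0 and 25.1 CPM in the control. The groups did not overlap, but replicate 1 lay well above the other knockout libraries. EZH1 rose by 0.20 ± 0.07 (adjusted p = 0.0140), and the call was lost without knockout replicate 1 (0.12, edgeR adjusted p = 0.0913) and without control replicate 3 (0.17, edgeR adjusted p = 0.0589).

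Levels of different genes were compared as RPKM, CPM per kilobase of all annotated exons of the gene, which counts rarely used exons in full. EZH2 was the most abundant of the 10 on this scale in both groups, at 28.9 ± 1.04 RPKM in knockout cells and 19.98 ± 0.252 in the control (SD, n = 3). EZH2 was 6.66 times EZH1 in knockout cells and 5.30 times in the control. Within each library the log2 ratio of EZH2 to EZH1 was 2.63, 2.82 and 2.75 in knockout cells and 2.37, 2.39 and 2.46 in the control. All 3 knockout values were above all 3 control values, a difference of 0.33 in the log2 ratio (two-sided exact permutation p = 0.1, the smallest that 3 against 3 can give, and 0.167 after Benjamini-Hochberg adjustment over 5 ratios). The sum of both enzymes was 33.2 ± 1.42 RPKM in knockout cells and 23.7 ± 0.386 in the control.

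The other PRC2 genes among the 10 (EED, SUZ12 and JARID2) did not pass the test. EED (ENSG00000074266.18, chromosome 11, 86244544 to 86278813), the subunit that binds the H3K27 mark and stimulates the enzyme, had 32.0, 31.6 and 32.3 CPM against 27.7, 29.6 and 30.2 CPM in the control. The groups did not overlap, but the log2 fold change of 0.13 ± 0.06 missed the threshold (adjusted p = 0.0574). It passed without control replicate 3 (0.15, edgeR adjusted p = 0.0383) and when scaled by library size alone (0.17, edgeR adjusted p = 0.0176) or by upper quartile (0.16, 0.0195). SUZ12 (ENSG00000178691.10, chromosome 17, 31937018 to 32001045), which holds the complex together, had 53.8, 62.5 and 59.7 CPM against 57.3, 62.1 and 60.3 CPM. The groups overlapped and the log2 fold change was -0.03 ± 0.06 (adjusted p = 0.695), with its sign reversed without knockout replicate 1 (0.03) and when scaled by library size alone (0.0119) or by upper quartile (0.00324). JARID2 (ENSG00000008083.13, chromosome 6, 15246296 to 15522040) had 22.5, 22.7 and 21.6 CPM against 21.5, 20.6 and 20.4 CPM, which do not overlap but lie close together. Its log2 fold change was 0.10 ± 0.06 (adjusted p = 0.181).

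The log2 ratio of EED to SUZ12 was -0.85, -1.08 and -0.99 in knockout cells and -1.15, -1.17 and -1.10 in the control, without overlap and with a difference of 0.16 (two-sided exact permutation p = 0.1, adjusted 0.167). The ratio of JARID2 to SUZ12 overlapped between the groups (difference 0.13, two-sided exact permutation p = 0.3). Without knockout replicate 1 these differences were 0.10 and 0.06. In RPKM, SUZ12 stood at 8.96 ± 0.681 in knockout cells and 9.14 ± 0.371 in the control, EED at 4.55 ± 0.0497 and 4.16 ± 0.185, and JARID2 at 3.70 ± 0.0981 and 3.46 ± 0.0933. SUZ12 has a transcribed unprocessed pseudogene copy, SUZ12P1, at 10.5 ± 0.370 CPM in knockout cells, and 11.8 ± 0.142 in the control, and reads of both can be shared.

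The catalytic subunits of PRC1 were both lower. RING1 (ENSG00000204227.4, chromosome 6, 33208495 to 33212722) had 23.5, 23.1 and 22.6 CPM in knockout cells, and 24.99, 25.6 and 26.4 CPM in the control. The groups did not overlap, and the fall was small at 0.16 ± 0.06 on the log2 scale. With a log2 fold change of -0.16 RING1 passed the test (adjusted p = 0.0279), and it lost its call without knockout replicate 2 or 3 or control replicate 2 or 3 (edgeR adjusted p = 0.0530, 0.0939, 0.0616 and 0.0687), in DESeq2 (adjusted p = 0.0646), and when scaled by library size alone or by upper quartile (edgeR adjusted p = 0.113 and 0.0791). RNF2 (ENSG00000121481.10, chromosome 1, 185045364 to 185102608), also known as RING1B, had 13.997, 18.5 and 16.6 CPM against 19.8, 21.0 and 20.2 CPM. Each knockout library was below each control library, with replicate 1 the lowest. The log2 fold change was -0.31 ± 0.08 (adjusted p = 0.00266).

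Per kilobase of exon RING1 exceeded RNF2 in every library. RING1 stood at 12.7 ± 0.233 RPKM and RNF2 at 4.02 ± 0.561 RPKM in knockout cells, and at 14.1 ± 0.382 and 4.998 ± 0.147 RPKM in the control. The log2 ratio of RNF2 to RING1 was -1.91, -1.48 and -1.61 in knockout cells and -1.50, -1.45 and -1.55 in the control, so the groups overlapped (difference -0.17, two-sided exact permutation p = 0.3). The difference was -0.05 without knockout replicate 1 and -0.26 without knockout replicate 2.

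The PCGF subunits decide which kind of PRC1 forms, and PCGF6 changed most of the 10 genes. PCGF6 (ENSG00000156374.14, chromosome 10, 103302796 to 103351144, minus strand), which works with MGA, MAX, E2F6 and L3MBTL2 and is known for silencing germline genes in embryonic stem cells, had 18.2, 23.8 and 22.9 CPM in knockout cells. The control libraries had 37.1, 37.1 and 43.7 CPM, all above every knockout library. PCGF6 fell by 0.86 ± 0.09 (SE) on the log2 scale (adjusted p = 3.33e-08), a mean of 21.6 ± 3.00 against 39.3 ± 3.85 CPM. It was the only 1 of the 10 to pass a test against a fold of 1.5 (glmTreat in edgeR), which 17.3% of all genes passed. Under other rules the counts were as follows: at an adjusted p under 0.01, 2 Polycomb genes were higher and 2 lower (53.5% of all genes called), in DESeq2 3 and 2 (58%), in limma-voom 3 and 4 (63.3%), and with the replicate number as a block 4 and 4 (66.2%).

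BMI1 (ENSG00000168283.13, chromosome 10, 22321211 to 22331484), the PCGF subunit of a canonical PRC1 and a classic repressor of the CDKN2A locus, had 19.5, 31.3 and 27.6 CPM against 29.9, 32.1 and 34.1 CPM. The groups overlapped through knockout replicate 2, and the SD of the knockout group was 23.1% of its mean, while the median for genes in the same range of levels was 4.46%. The log2 fold change of -0.29 ± 0.12 missed the threshold (adjusted p = 0.0556). It was -0.12 without knockout replicate 1 (edgeR adjusted p = 0.142), and it passed without knockout replicate 2 (-0.44, edgeR adjusted p = 4.41e-04) or replicate 3 (-0.33, 0.0424). Of its exon bases 23.35% are shared with the annotated readthrough gene COMMD3-BMI1 (1000 bases), so reads there can have been dropped or assigned elsewhere. The gene just before it, COMMD3, stood at 9.73 ± 0.234 CPM in knockout cells, and 12.9 ± 1.40 CPM in the control.

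The PCGF genes were also set against each other within each library. The log2 ratio of BMI1 to PCGF6 in RPKM was -0.41, -0.11 and -0.24 in knockout cells and -0.82, -0.72 and -0.87 in the control, without overlap (difference 0.55, two-sided exact permutation p = 0.1, adjusted 0.167). Of the summed RPKM of the 6 PCGF paralogues, PCGF6 held 20.6% ± 1.03 in knockout cells and 28.3% ± 1.86 in the control (SD, n = 3), and PCGF5 held 5.62% ± 0.425 and 14.8% ± 0.681. The share of BMI1 was 17.4% ± 2.45 and 16.2% ± 0.471. PCGF1, PCGF2 and PCGF3 held 13.1%, 22.6% and 20.6% in knockout cells, and 8.14%, 16.6% and 15.9% in the control. A share also depends on the other paralogues, so a larger share need not mean a higher level. PCGF1 rose by 0.28 ± 0.07 on the log2 scale (adjusted p = 0.00276). PCGF2 and PCGF3 did not pass the test (log2 fold change 0.04 and -0.04, adjusted p = 0.609 and 0.535). The summed level of the 6 was 34.8 ± 3.39 RPKM against 46.1 ± 1.74.

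CBX2 (ENSG00000173894.10, chromosome 17, 79778132 to 79787983), a chromodomain protein that compacts chromatin, was the least abundant of the 10 in both groups, at 1.998 ± 0.0637 and 1.49 ± 0.0367 RPKM. It had 11.7, 10.98 and 11.4 CPM in knockout cells, and 8.41, 8.29 and 8.70 CPM in the control. The groups did not overlap and the libraries of each were close together. CBX2 rose by 0.42 ± 0.08 on the log2 scale, or 1.34-fold (adjusted p = 7.57e-05). Among the 5 CBX paralogues of PRC1, CBX2 made up 9.02% ± 0.276 of the summed RPKM in knockout cells and 7.97% ± 0.147 in the control. CBX6 held 51.0% and 54.2%. Its level was nonetheless higher in knockout cells, at 11.3 against 10.1 RPKM (log2 fold change 0.16 ± 0.05, adjusted p = 0.0120). The sum of the 5 was 22.2 ± 0.467 RPKM against 18.7 ± 0.116.

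**Figure D2:**
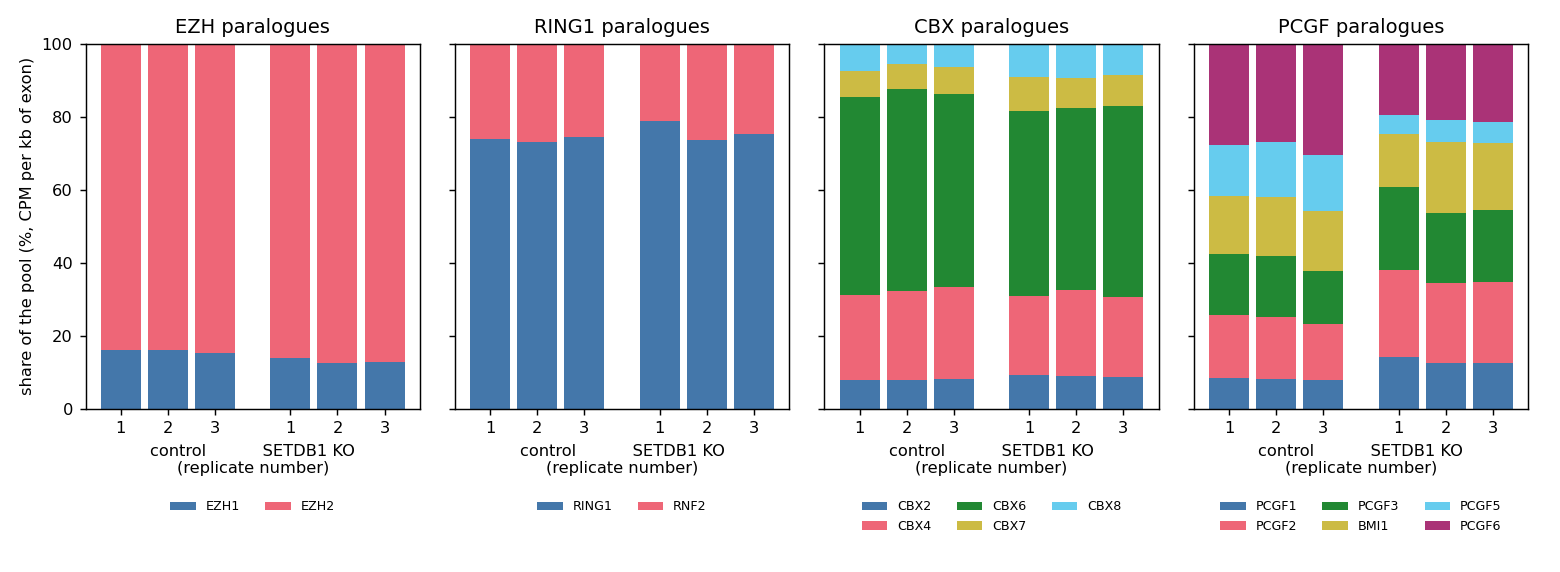
Share of each paralogue in the summed level of its family (vertical axis, percent of CPM per kilobase of exon) in each control and knockout library (horizontal axis, replicate numbers) for the EZH, RING1, CBX and PCGF families. PCGF6 and PCGF5 take a smaller part of the PCGF sum in all 3 knockout libraries (means of 20.6% and 5.62%) than in the control (28.3% and 14.8%), and EZH2 dominates the EZH sum in every library.

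Ordered by RPKM, the control group ran EZH2, RING1, PCGF6, SUZ12, BMI1, RNF2, EED, EZH1, JARID2 and CBX2. In that order only RING1 and PCGF6 overlapped between neighbouring ranks, at 14.1 and 13.1 RPKM. In knockout cells the order was EZH2, RING1, SUZ12, PCGF6, BMI1, EED, EZH1, RNF2, JARID2 and CBX2. There, libraries of neighbouring ranks overlapped from PCGF6 (7.19 RPKM) down to JARID2 (3.70 RPKM), so the ranks in between are not separated by the spread. PCGF6 went from the rank beside RING1 to one below SUZ12.

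Each Polycomb gene was also read beside the genes around it. For each, the 25 expressed genes on either side (mean log2 CPM above 3) were taken. Where their median was taken out, it was treated as a fixed value. The p-values after that step therefore leave out the uncertainty of the median and the spread between neighbours. Around PCGF6, over chromosome 10 from 101031234 to 113730907, 43 of 50 neighbours were lower and 3 higher, with a median log2 fold change of -0.47, and 5 of the 50 had a more negative value than PCGF6. With that median taken out, PCGF6 stood at -0.39 (edgeR adjusted p = 6.69e-04). Around EZH2, over chromosome 7 from 138460334 to 152676165, 37 of 50 neighbours were higher and 4 lower, with a median of 0.29, and 16 had a larger value than EZH2. With the median taken out, EZH2 stood at 0.24 (edgeR adjusted p = 4.20e-04). The part of the surrounding stretch in either change was not tested. Of all genes tested 56.9% were called with their neighbours' medians taken out, and of the 10 Polycomb genes 4 were then higher and 3 lower.

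The other called genes lay in stretches with smaller medians. The neighbours of CBX2 had a median of 0.06, and 7 of the 50 had a larger value than CBX2, which stood at 0.36 with the median taken out (edgeR adjusted p = 5.08e-04). The neighbours of RNF2 had a median of -0.01, and 10 of 50 had a more negative value; RNF2 kept its call at -0.30 (edgeR adjusted p = 0.00390). RING1 lies in the extended major histocompatibility region of chromosome 6, where 25 of 50 neighbours were higher and 11 lower, with a median of 0.15, the opposite sign to RING1; it stood at -0.30 with the median taken out (edgeR adjusted p = 2.38e-04). EZH1, with neighbours at a median of 0.11, lost its call at 0.09 (edgeR adjusted p = 0.279). For EED the neighbours had a median of -0.24, with 27 lower and 8 higher, and with that taken out EED passed at 0.36 (edgeR adjusted p = 2.34e-05); JARID2, with neighbours at -0.06, passed at 0.16 (edgeR adjusted p = 0.0313).

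**Figure D3:**
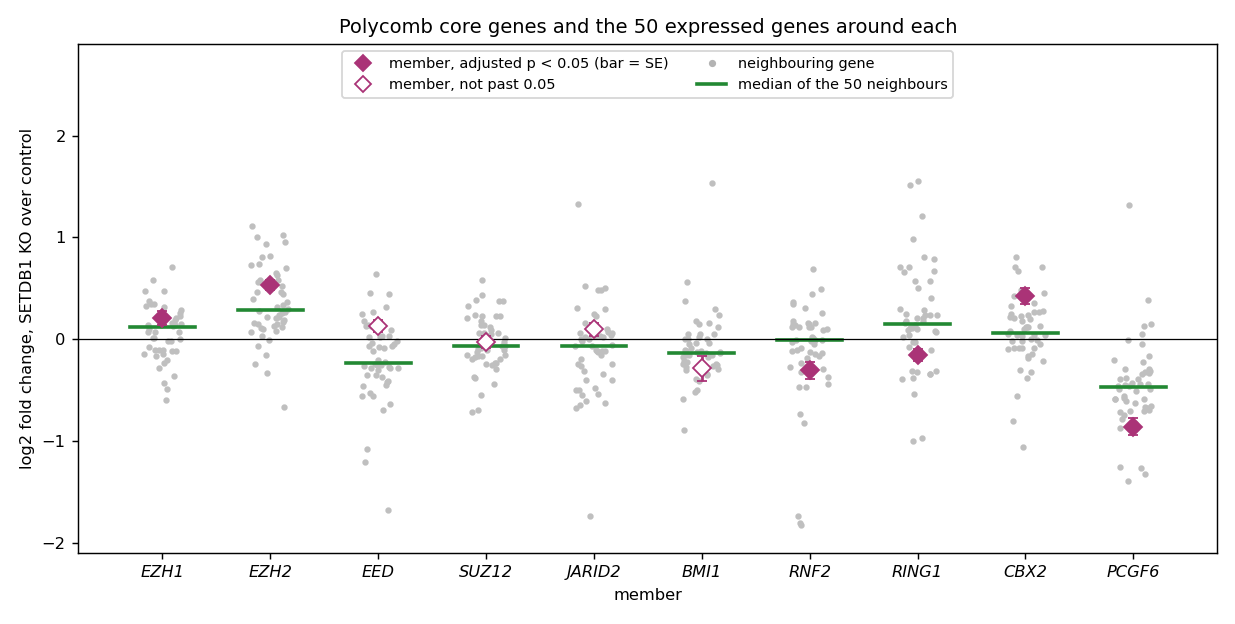
Log2 fold change of knockout over control (vertical axis) for each Polycomb gene (diamonds, filled where the adjusted p was under 0.05, bar = SE) and for the 50 expressed genes around it (grey dots, green line at their median). The neighbours of PCGF6 lie mostly below 0 (median -0.47) and those of EZH2 mostly above it (median 0.29), while EED, JARID2 and RING1 lie on the opposite side of 0 to the median of their neighbours.

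The other subunits, partners and antagonists of Polycomb also went both ways. Of 9 further PRC2 subunits tested 1 was higher and 5 were lower (median log2 fold change -0.21). RBBP4, a histone-binding subunit shared with other complexes, rose by 0.18 ± 0.05 (adjusted p = 0.00508). LCOR, whose locus also encodes the PRC2 accessory protein PALI1, fell by 0.87 ± 0.06 (adjusted p = 8.19e-11), and PHF1, which binds methylated H3K36, fell by 0.31 ± 0.05 (adjusted p = 3.45e-05). Of 11 further canonical PRC1 subunits 4 were higher and 3 lower (median 0.04). The chromodomain genes CBX8 and CBX7 rose 1.65-fold and 1.47-fold to 8.20 ± 0.245 and 14.5 ± 0.865 CPM (adjusted p = 6.01e-06 and 2.43e-06). CBX7 went from 0.55 to 0.32 on the log2 scale with its neighbours' median taken out (edgeR adjusted p = 0.00111). SCML1, a sex comb on midleg-like gene, and PHC3, a polyhomeotic subunit, fell by 0.59 ± 0.06 and 0.35 ± 0.05 on the log2 scale. In both lists the called share (66.7% and 63.6%) was close to the 63.5% of all genes.

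Of 16 variant PRC1 subunits tested 5 were higher and 5 lower (median 0.01). The called share of 62.5% was close to the 63.5% of all genes. PCGF5, the PCGF subunit of another variant PRC1, showed the largest change of all Polycomb genes listed: it went from 56.7 ± 4.59 CPM in the control to 16.3 ± 2.75 CPM, a fall of 1.79 ± 0.09 on the log2 scale (adjusted p = 1.11e-12). RYBP and YAF2 are paralogues that take the same place in variant PRC1, and they went opposite ways. RYBP rose 1.52-fold to 18.9 ± 1.80 CPM (adjusted p = 1.23e-06), and YAF2 fell by 0.93 ± 0.10 on the log2 scale to 17.96 ± 3.599 CPM (adjusted p = 9.42e-08). Their neighbours had medians of 0.13 for RYBP and -0.29 for YAF2. Under the 17 alternatives listed below, the log2 fold change was 0.47 to 0.67 for RYBP and -1.08 to -0.64 for YAF2. CSNK2B, the regulatory subunit of casein kinase 2, rose 1.45-fold, or 0.54 on the log2 scale, and stood at 0.18 with its neighbours' median taken out (edgeR adjusted p = 0.0143).

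PCGF6, PCGF5 and LCOR lie on the same arm of chromosome 10. PCGF5 (91163012 to 91284331) and LCOR (96832282 to 96995959) had neighbours with medians of -0.68 and -0.59, and stood at -1.11 and -0.28 with these taken out (edgeR adjusted p = 2.11e-09 and 3.19e-04). BMI1 lies on the other arm, with neighbours at -0.13. PCGF5 and PCGF6, the genes whose share of the PCGF sum was smaller, both lay among neighbours with medians below 0. So did BMI1 and PCGF3 (neighbours at -0.12), whose mean shares were not smaller. Shares of a sum depend on each other, so a fall of PCGF5 and PCGF6 by itself raises the shares of the rest. In mean level BMI1 stood at 6.11 RPKM in knockout cells against 7.48 in the control, and PCGF3 at 7.12 against 7.33. Neither BMI1 nor PCGF3 was called. The part of those neighbourhoods in the shares was not tested.

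The partners of PCGF6 were split, with 3 of 9 higher and 3 lower (median -0.02). Their called share of 66.7% was close to the 63.5% of all genes. L3MBTL2, a chromatin-binding subunit, and the deacetylase HDAC1 rose 1.36-fold and 1.32-fold (adjusted p = 1.98e-06 and 1.21e-06). With its neighbours' median taken out, L3MBTL2 went from 0.45 to 0.15 on the log2 scale (edgeR adjusted p = 0.0354). CBX3, which encodes HP1 gamma, and HDAC2 fell by 0.40 ± 0.06 and 0.35 ± 0.05 on the log2 scale, with neighbours at medians of -0.39 and -0.50. With those medians taken out, CBX3 lost its call (-0.01, edgeR adjusted p = 0.922) and HDAC2 turned to 0.15 and passed in that direction (edgeR adjusted p = 0.0182). Of 11 antagonists tested 3 were higher and 4 lower (median -0.09), a called share of 63.6% beside the 63.5% of all genes. KDM6B, an H3K27 demethylase, rose 1.93-fold to 21.1 ± 0.548 CPM (adjusted p = 5.72e-09) among neighbours with a median of 0.61, and stood at 0.34 on the log2 scale instead of 0.95 with that median taken out (edgeR adjusted p = 0.00160). MBD6, which belongs to a complex that removes ubiquitin from H2A, rose 1.26-fold, but its call was lost with the neighbours' median taken out (0.14, edgeR adjusted p = 0.0528). FOXK1, a forkhead partner of that complex, fell by 0.49 ± 0.06, and stood at -0.22 with its neighbours' median taken out (edgeR adjusted p = 0.00215). MBD5 fell by 0.58 ± 0.07, with neighbours at -0.72, and turned to 0.15 with that median taken out, which did not pass (edgeR adjusted p = 0.0660).

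**Figure D4:**
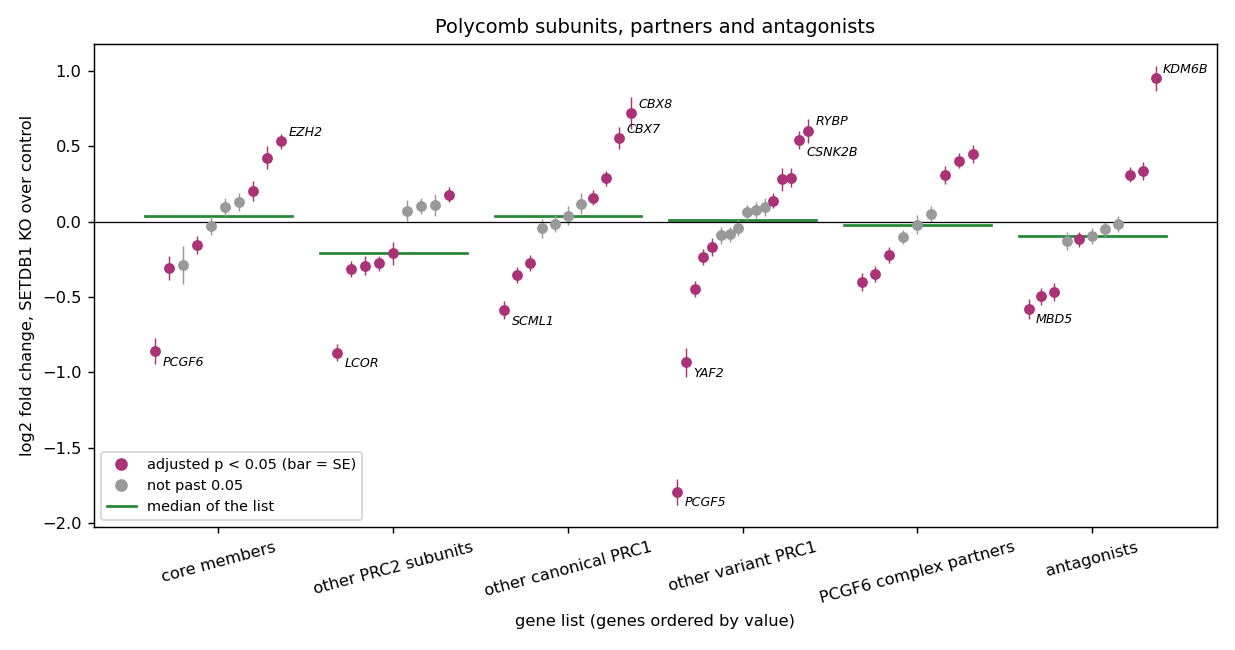
Log2 fold change of knockout over control (vertical axis, bar = SE) for the 10 core genes and the tested genes of 5 further Polycomb lists, ordered by value within each list; green lines are list medians and genes changed by 0.5 or more are named. Every list has genes on both sides of 0, its median lies between -0.21 and 0.04, and PCGF5 at -1.79 is the lowest value.

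Genes that Polycomb complexes are known to silence were then listed. Of 43 developmental regulators known as PRC2 targets 31 were tested and 12 were not analysed here; a gene that is silent in both groups cannot enter this count, so the 31 do not stand for all 43. Of these, 11 were higher and 15 lower, with a median log2 fold change of -0.28. This is 83.9% called, beside 63.5% of all genes tested. A gene near 0 in a single group can pass the filter on low counts through the other group, which favours a call. OLIG2 (below) passed in this way, so the share cannot be read as a result about PRC2 targets. GATA3, a zinc finger transcription factor gene, rose 5.96-fold from 0.870 ± 0.0898 to 5.18 ± 0.235 CPM (adjusted p = 6.15e-12), and TBX3, a T-box gene, rose 3.15-fold from 1.15 ± 0.243 to 3.64 ± 0.153 CPM. The neural gene OLIG2 went from 2.41 ± 0.383 to 0.0818 ± 0.0217 CPM, a log2 difference of -4.84 ± 0.30, and the homeobox gene IRX3 fell by 1.98 ± 0.13 (adjusted p = 4.54e-11).

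Of 13 germline genes known to be silenced by the PCGF6 complex in mouse embryonic stem cells 6 were tested. Of these 3 were higher, 1 was lower and 2 were not called. The called share of 66.7% was close to the 63.5% of all genes tested. STAG3, a meiotic cohesin subunit, was already well expressed in the control and rose 3.56-fold from 72.7 ± 2.82 to 259 ± 16.5 CPM (adjusted p = 1.48e-15); it has related pseudogene copies, so its reads can be shared. SMC1B, another meiotic cohesin subunit, rose 3.46-fold from 1.36 ± 0.112 to 4.72 ± 0.512 CPM (adjusted p = 1.15e-09). The remaining 7 of the 13 were not analysed here, and silent genes cannot enter this count either.

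EZH2 is known as a gene driven by E2F factors in cycling cells, so 20 proliferation genes were read beside it. Of these 9 were higher and 5 lower, with a median log2 fold change of 0.10. This is 70% called, beside 63.5% of all genes tested. Their summed level was 4872 to 4934 CPM in knockout cells, and 4875 to 5056 CPM in the control, which overlap. MKI67 alone gave 621 to 688 CPM of the sum in knockout cells and 996 to 1065 CPM in the control. The overlap therefore does not show that the other genes of the list were level. The replication licensing genes MCM2 and MCM5 rose 1.37-fold and 1.34-fold (adjusted p = 2.95e-07 and 4.97e-07). MCM5 went from 0.42 to 0.18 on the log2 scale with its neighbours' median taken out (edgeR adjusted p = 0.00414). MKI67 and CDK1, both on chromosome 10 with neighbours at -0.45 and -0.54, fell by 0.67 ± 0.06 and 0.62 ± 0.06 (log2), with values of -0.22 (edgeR adjusted p = 0.00290) and -0.08 (0.295, call lost) once their neighbours' medians were taken out. The part of proliferation in the rise of EZH2 was not tested.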

How the data were processed

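Raw counts of reads for each Ensembl gene in 6 libraries were deposited by the authors as 1 table. FastQC, TopHat2 and HTSeq are the tools, and GRCh38.p7 the build, listed per the submitters' processing notes; tool versions, settings and use of strand are not given there. Every row had a library with at least 11 counts. Gene IDs, versions removed, were looked up in GENCODE 29 (GRCh38), which named 18593 of 18677 rows and gave coordinates and exon lengths. Groups and replicate numbers came from the titles. Genes were kept by filterByExpr (17675 tested, 1002 removed), scaled by TMM and tested with edgeR 4.0.16 in R 4.3.3 (robust glmQLFit and glmQLFTest); 1 count was 0.0282 to 0.0334 CPM. Between replicates the counts varied beyond sampling noise (chi-square per degree of freedom 2.32 to 10.3). Ratios were taken within a library and tested by exact permutation. The main edgeR fit and the median of the neighbours, but not the other steps, were run on simulated counts. Far fewer genes were changed in that simulation than were called in these data.

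The members, the gene lists and the tests were chosen with earlier results of these data known. Named besides the 10 members and SETDB1 were, per list, up to 2 rising and 2 falling called genes with the largest change, groups without overlap and at least 1 CPM in the higher group. Alternatives were scaling by upper quartile, by DESeq2 size factors or by library size alone, a minimum of 1 CPM in 3 libraries or no filter, DESeq2 1.42.0, limma-voom (limma 3.58.1), an adjusted p under 0.01, a fold of 1.5 (glmTreat), a replicate block, the median of 25 neighbours on each side taken out, and each library left out.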

Additional observations from a re-analysis of the deposited data

How the results depend on the processing

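PCGF6 kept its direction and call under all 17 alternatives (log2 fold change -0.94 to -0.39). EZH2 (0.53), CBX2 (0.42) and RNF2 (-0.31) lost theirs only in the test against a fold of 1.5, in which 0 of the 10 genes were higher, 1 was lower and 3052 genes were called over the table; at an unadjusted p under 0.05 glmTreat in edgeR gave the same 0 and 1, and DESeq2 and limma-voom, run without a fold, each had 3 higher. EZH1 was lost there and at an adjusted p under 0.01 (0.20 in both) and with the neighbours' median taken out (0.0894); leaving out 1 library gave 0.12 to 0.24. RING1 was lost in DESeq2, at an adjusted p under 0.01 and against a fold of 1.5 (-0.16 in each), with library size alone (-0.11) and with upper-quartile scaling (-0.12); leaving out 1 library gave -0.18 to -0.14. EED was gained with a minimum of 1 CPM (0.14), library size alone (0.17), upper-quartile scaling (0.16), the neighbours' median taken out (0.36) and the replicate block (0.13), and ranged from 0.0920 to 0.15 with 1 library left out. JARID2 was gained with the neighbours' median taken out (0.16). BMI1 was gained with a minimum of 1 CPM (-0.28), limma-voom (-0.31), upper-quartile scaling (-0.26) and the replicate block (-0.30), and ranged from -0.44 to -0.12 with 1 library left out. SUZ12 changed sign with library size alone (0.0119), upper-quartile scaling (0.00324), the neighbours' median taken out (0.0364) and 1 library left out (-0.0810 to 0.0298). With the neighbours' median taken out HDAC2 turned to 0.15 and passed (edgeR adjusted p = 0.0182), and MBD5 turned to 0.15 and did not (0.0660). The causes were not tested.

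The replicate number as a block gave 11703 called genes against 11219, with 4 Polycomb genes higher and 4 lower, and BMI1 at an edgeR adjusted p of 2.26e-06. Deviations of same-numbered libraries correlated at 0.40, -0.15 and 0.20 across genes, and SETDB1-knockout replicate 2 correlated best with control replicate 3 (0.37), so the numbers were not taken as pairs. Within pairs, each of the 5 ratios had a two-sided exact sign-flip p of 0.25, the smallest that 3 pairs allow.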

Other observations

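The CDKN2A and CDKN2B genes, which encode cell cycle inhibitors and are the best known targets of BMI1, were looked at after their values were seen. CDKN2A had 52.0, 51.6 and 54.8 CPM in knockout cells and 35.2, 37.3 and 36.5 CPM in control cells, without overlap, and rose 1.45-fold (edgeR adjusted p = 4.33e-08). CDKN2B rose by 0.18 ± 0.07 on the log2 scale (edgeR adjusted p = 0.0215). CCND2, a cyclin gene often used as a PRC2 target, stood at 24.3 CPM in knockout cells and 11.6 CPM in control cells (log2 fold change 1.07 ± 0.07, edgeR adjusted p = 7.58e-11). The neighbours of CCND2 had a median log2 fold change of 0.34, those of CDKN2A -0.14 and those of CDKN2B -0.15. These genes were picked from a list in which 11 genes were higher and 15 lower. BMI1 itself did not pass the test (edgeR adjusted p = 0.0556), and its part in the levels of CDKN2A and CDKN2B was not tested.

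KDM6A, the other widely expressed H3K27 demethylase gene, was also picked after its value was seen. It stood at 20.02 CPM in knockout cells and 27.7 CPM in control cells, which is -0.47 ± 0.06 in log2 fold change (edgeR adjusted p = 1.35e-06), while its paralogue KDM6B was higher.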
